A study of Homo sapiens with 4 samples.

Results

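Collagen genes and the enzymes that modify collagen were followed in HCC1954 human breast cancer cells carrying a hairpin against ZDHHC15. The members were the protein-coding genes of the count table that are named as collagen chains (COL, a number, A, a number), together with the prolyl 4-hydroxylase subunits P4HA1, P4HA2 and P4HA3, the lysyl hydroxylases PLOD1, PLOD2 and PLOD3, LOX and the lysyl oxidase-like genes LOXL1 to LOXL4, and the chaperone gene SERPINH1. This gave 56 genes of 58735 in the table, or of 19951 protein-coding genes, of which 44 encode collagen chains and 12 encode enzymes or the chaperone. The rule is by gene name and type, and uses no measured value.

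The study examined how palmitic acid promotes tumor metastasis. RNA of cancer cells depleted of ZDHHC15, a palmitoyltransferase, was sequenced there to examine further the role of this enzyme in YAP activity. From the HCC1954 data the study also reported gene set enrichment of extracellular matrix receptor interaction and focal adhesion. It read this as a possible effect on cell migration and invasion. Both groups were the same established line, HCC1954, and both received a hairpin plasmid of the GIPZ type. The 2 shCON samples carried a scrambled control hairpin and the 2 shZDHHC15 samples a hairpin against ZDHHC15, and cells were harvested 36 h after lipid transfection. The labels describe the knockdown as stable in one place and the transfection as transient in another, and the study screened clonal cultures, but the sources used here do not tie a sample to a clone or a hairpin. Nothing says that the 2 samples of a group were separate cultures, so the p-values measure only the spread between these samples, which may be technical.

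Collagens are trimers of chains that share long Gly-X-Y repeats. Their prolines and lysines are hydroxylated in the endoplasmic reticulum by P4HA and PLOD enzymes, the folded trimer is held by the chaperone HSP47 (the product of SERPINH1), and after secretion LOX family enzymes crosslink the chains. Fibroblasts make most of the fibrillar collagen of the breast, while epithelial and carcinoma cells contribute to basement membranes and also remodel the matrix around them.

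ZDHHC15, the targeted gene (chromosome X, 75368427 to 75523502, minus strand), was counted 17617 and 15716 times in the shCON samples and 0 times in both shZDHHC15 samples, at least 6045-fold lower with a floor of 3 counts per library. The row agreed in direction with the labels, but it stood apart from the rest of the table. A hairpin degrades messenger RNA and commonly leaves some of it. Of the 58735 rows, ZDHHC15 was the 1 row with at least 100 counts in both shCON samples and 0 in both shZDHHC15 samples. Among other rows at 0 in both shZDHHC15 samples, the most counted was CXorf49, with 1 and 63 in shCON. ZDHHC15 was also the 104th most counted gene in shCON, and the next ZDHHC gene, ZDHHC5, had 5241 and 4731 counts there. How the 0 counts came about was not tested, and the row is no graded measure of how far the gene was lowered. The directions below are those of the libraries as labelled.

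The 4 libraries held between 17560982 and 19118704 counts. Mitochondrial genes took 2.07 to 2.18% of counts in shCON and 2.58 to 2.63% in shZDHHC15. The epithelial markers of the line were abundant, with ERBB2 at 92598 to 101910 counts, but the summed level of 8 such markers was 18934 and 20500 CPM in shCON and 11816 and 12074 CPM in shZDHHC15 (CPM are counts scaled to a common library size). Of these 8, KRT8, KRT18, KRT5, GRB7, EPCAM and ERBB2 were called lower, KRT19 was called higher and CDH1 was not called. The keratins of simple epithelium KRT8 and KRT18 fell most (log2 fold changes of -1.62 and -1.58, adjusted p = 4.87e-09 and 7.76e-09). Some markers of other cell types were higher. The summed level of 10 fibroblast and mural cell markers was 148 and 144 CPM in shCON and 294 and 261 CPM in shZDHHC15, with 5 of the 10, including PDGFRA, PDGFRB, DCN and LUM, at or under 3 counts in every sample. Of that sum, C1S rose by a log2 fold change of 2.75 (adjusted p = 5.2e-10) and ACTA2 by 0.67 (adjusted p = 0.0225). The sum of 6 endothelial markers was 57.6 and 57.7 CPM in shCON and 108 and 102 CPM in shZDHHC15, with PECAM1 and CDH5 higher and KDR lower. The sum of 6 leukocyte markers was 9.32 and 11.3 CPM in shCON and 5.59 and 6.83 CPM in shZDHHC15, with CSF1R called lower and CD14 called higher. The part of these shifts in the collagen results was not tested, and in bulk RNA fewer cells of a type and less RNA per cell cannot be told apart.

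Counts were normalized with trimmed-mean (TMM) factors, and each gene was tested with edgeR's quasi-likelihood test, with p-values adjusted by Benjamini-Hochberg over all 15817 genes that passed the filter on low counts. A gene was called when its adjusted p was under 0.05, and all fold changes are shZDHHC15 over shCON. Of the 56 members, 33 were tested, comprising 23 chains and 10 enzymes or chaperone. Among them 9 were higher and 4 were lower, and 20 were not called. These were 27.3% and 12.1% of the tested members, beside 21.7% higher and 20.3% lower among all genes tested. With a log2 limit of 1 as well, 3 members were higher and 2 lower (9.09% and 6.06%), beside 7.51% and 3.79% of all genes. The median log2 fold change was 0.13 over the tested members, 0.26 over the chains and -0.02 over the enzymes and chaperone, against 0.02 over all tested genes. With the DESeq2 Wald test 5 members were higher (15.2%, beside 16.7% of all genes), and without the filter on low counts 4 of 55 were (7.27%, beside 7.56%). The higher share of called members above that of all genes therefore depended on the setting.

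**Figure D1:**
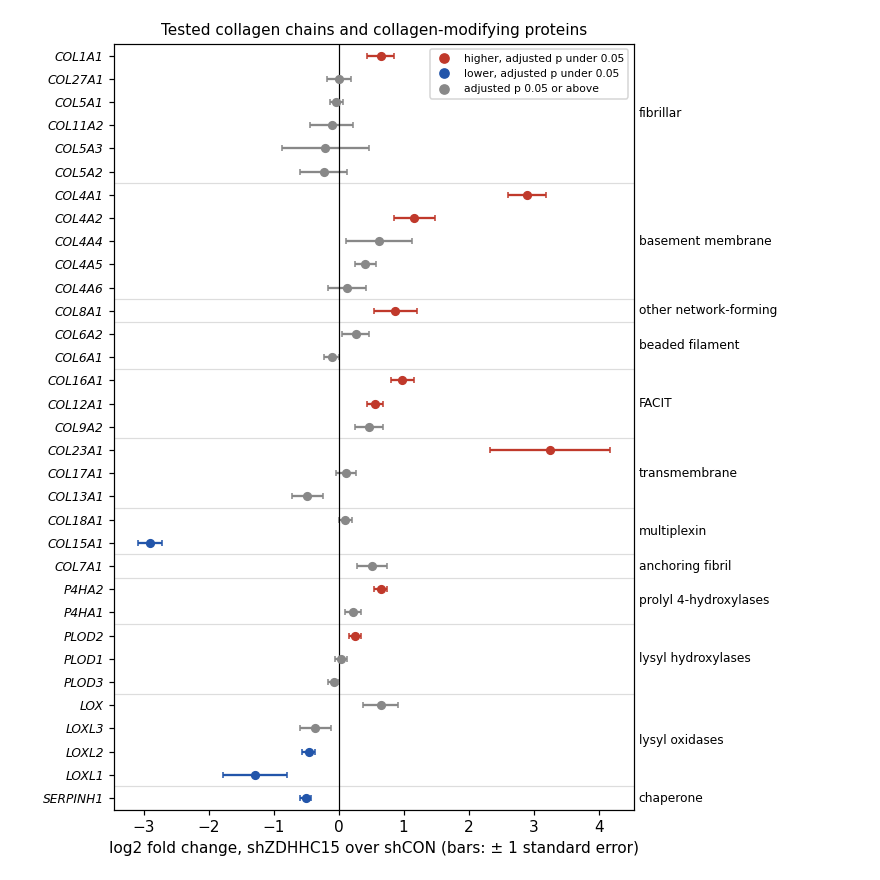
Log2 fold changes (shZDHHC15 over shCON, horizontal axis) of the 33 tested members, grouped by role, with bars of 1 standard error. Red points are the 9 members called higher, blue points the 4 called lower and grey points the 20 not called. COL4A1 and COL23A1 lie farthest to the right and COL15A1 farthest to the left.

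Basement membrane collagen IV held the largest rise among members with more than 2 counts in both shCON samples. COL4A1, which encodes the alpha1 chain of the collagen IV network, had 23 and 12 counts in shCON and 132 and 153 in shZDHHC15. Both knockdown samples lay far above both controls. Its mean level was 0.987 ± 0.389 CPM in shCON and 7.44 ± 0.499 CPM in shZDHHC15 (SD, n = 2). The log2 fold change was 2.89 (SE 0.292, adjusted p = 2.25e-06). COL4A2, the partner that supplies the alpha2 chain of the same trimer, had 30 and 26 counts in shCON and 80 and 57 in shZDHHC15. The groups did not overlap, and the log2 fold change was 1.17 (SE 0.310, adjusted p = 0.0074), but without shZDHHC15 replicate 1 it was 0.86 and not called (adjusted p = 0.0845). Per kilobase of gene length, the COL4A1 level divided by the COL4A2 level was 1.00 and 0.604 in the shCON samples and 2.16 and 3.51 in the shZDHHC15 samples. Whether the fold changes of this pair differ was not tested.

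Those genes lie head to head on chromosome 13, COL4A1 on the minus strand (110148963 to 110307233) and COL4A2 on the plus strand (110305812 to 110513209), and no exon of one overlaps an exon of the other. In RefSeq (GRCh38.p14) their start sites, 110307157 and 110307284, are 126 bases apart. The stretches that carry the GC box (GGGCGG) and the CCAAT box in that shared gap are shown because both genes rose, each on the plus strand with the motif in capitals.
COL4A1-COL4A2 gap, GC box, chr13:110307209-110307234: ggcggtgcgcGGGCGGcgcctcaaag
COL4A1-COL4A2 gap, CCAAT box, chr13:110307169-110307193: gccgagctccCCAATttgttggcgc
The gap held neither the TEAD core (GGAATG) nor the core of the hypoxia response element (ACGTG) on either strand.

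The other collagen IV chains did not pass the test. COL4A5 had a log2 fold change of 0.41 (adjusted p = 0.054), from 207 and 209 counts in shCON to 257 and 347 in shZDHHC15, and it was called in 4 of 12 alternative analyses, among them those without shCON replicate 2 (adjusted p = 0.0392) and without shZDHHC15 replicate 1 (adjusted p = 0.0208). COL4A4 had 0.62 (adjusted p = 0.349) and COL4A6 0.13 (adjusted p = 0.763). COL4A3 was too low to test, at 1 and 0 counts in shCON and 4 and 6 in shZDHHC15. Over all 6 chains of the collagen IV list the summed level was 17.4 ± 0.391 CPM in shCON and 30.5 ± 2.67 CPM in shZDHHC15 (SD, n = 2).

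COL15A1 showed the largest fall of any member. It encodes the multiplexin collagen XV, which sits at the edge of basement membranes and can release an endostatin-like fragment. The shCON samples had 374 and 359 counts and the shZDHHC15 samples 45 and 62. All knockdown values lay far below the controls, and the level fell from 20.9 ± 0.543 CPM to 2.79 ± 0.525 CPM (SD, n = 2), 7.46-fold lower (log2 fold change of -2.90, SE 0.187, adjusted p = 1.97e-08). Per kilobase it went from rank 12 of the 56 members in shCON to rank 25 in shZDHHC15. An antisense gene that overlaps 137 of its exon bases, AL136084.3, had 0 counts in every sample. COL18A1, the other multiplexin and the source of endostatin, had 1155 and 1105 counts in shCON and 1300 and 1342 in shZDHHC15, a log2 fold change of 0.10 (adjusted p = 0.445). Its exons share 16.4% of their bases with SLC19A1 on the opposite strand. Whether counting used the strand is not given in the sources used here, so reads of such pairs cannot be told apart.

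**Figure D2:**
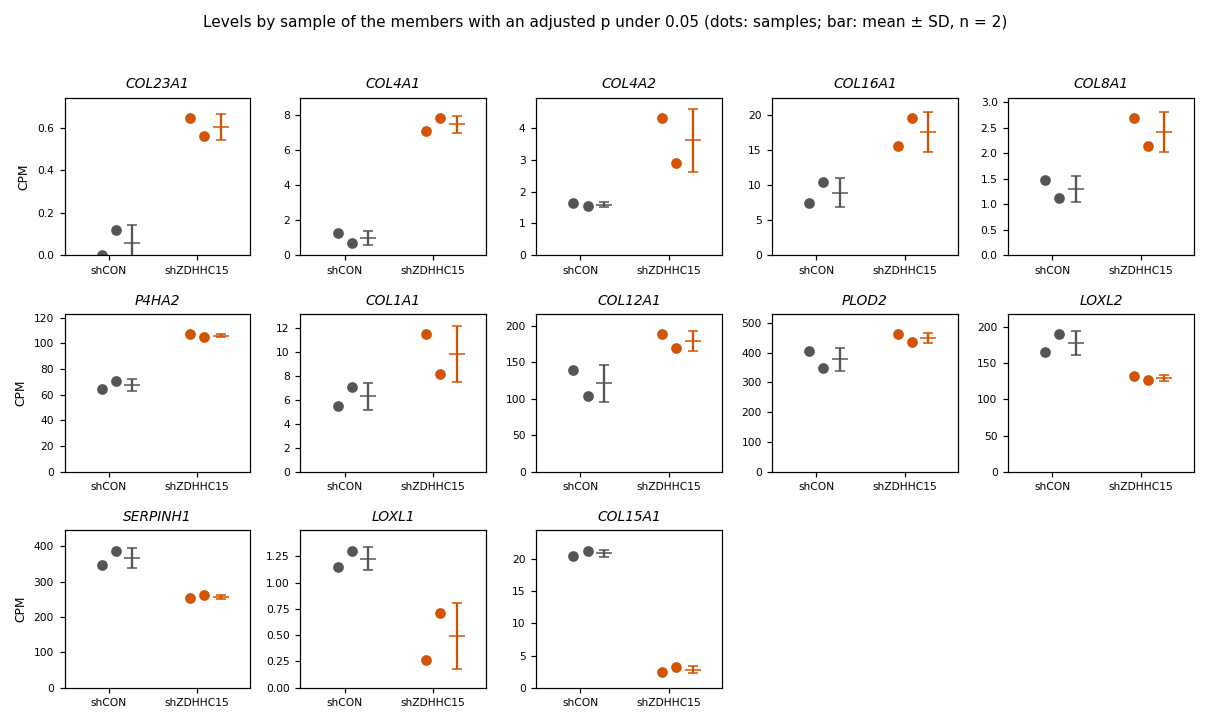
Level of each of the 13 called members in CPM (vertical axis, starting at 0, its own scale in each panel) in every sample, with the mean and SD of the 2 samples of each group; an SD that would pass below 0 is cut there. In each panel the shCON and shZDHHC15 samples do not overlap. Some members that were not called, such as COL5A1 and PLOD3, did not overlap either. With 2 samples in each group, a lack of overlap is no further evidence for a call.

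Of the 3 tested fibril-associated chains of the FACIT class, 2 were called higher, and of the 3 tested transmembrane chains 1 was. Among all tested genes 21.7% were called higher, and classes of 3 genes are too small to set beside that share. COL12A1 encodes collagen XII, a FACIT member, and was the most counted chain. It had 2544 and 1747 counts in shCON and 3509 and 3321 in shZDHHC15, and the knockdown samples exceeded both controls. The log2 fold change was 0.56 (SE 0.123, adjusted p = 0.0022). COL16A1, also a FACIT member, had 137 and 175 counts in shCON and 290 and 383 in shZDHHC15. Mean levels were 8.94 ± 2.02 CPM in shCON and 17.5 ± 2.78 CPM in shZDHHC15 (SD, n = 2), and the log2 fold change was 0.98 (SE 0.181, adjusted p = 0.000564). An antisense gene, AC114488.2, overlaps 117 of its exon bases and had between 1 and 11 counts. COL9A2, the remaining tested FACIT member, had a log2 fold change of 0.47 (adjusted p = 0.0996).

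COL23A1, which encodes a transmembrane collagen, was close to absent in the controls, at 0 and 2 counts, and had 12 and 11 counts in shZDHHC15. The groups did not overlap, and the test called it higher (adjusted p = 0.00987), although its fitted fold change depends on the prior count. The ratio of the summed counts after scaling was 10.6, with an exact 95% interval of 2.61 to 92.3 that covers counting error only. The call was lost in 3 of 9 alternative analyses, the DESeq2 Wald test and the fits without the filter on low counts or shCON replicate 1. Without either shZDHHC15 replicate the gene did not pass the filter. COL17A1, the collagen of hemidesmosomes, had a log2 fold change of 0.11 (adjusted p = 0.612) and the transmembrane COL13A1 had -0.48 (adjusted p = 0.118), with samples of the groups overlapping in both. COL13A1 was called lower without shCON replicate 1 (adjusted p = 0.0147) and without shZDHHC15 replicate 1 (adjusted p = 0.0076).

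COL1A1, the alpha1 chain of collagen I, was the only one of 6 tested fibrillar chains that was called. That was 16.7% higher, beside 21.7% higher among all tested genes. It had 100 and 120 counts in shCON and 214 and 161 in shZDHHC15, a log2 fold change of 0.65 (SE 0.211, adjusted p = 0.0232). No sample crossed between the groups, but the call was lost in 4 of 12 alternative analyses. Those were the DESeq2 Wald test and the fits without the filter on low counts, shCON replicate 1 or shZDHHC15 replicate 1. When 1 sample was left out, the log2 fold change of COL1A1 ranged from 0.38 to 0.87. COL1A2, the alpha2 chain of collagen I, was nearly absent, at 5 and 1 counts in shCON and 0 and 3 in shZDHHC15. COL5A1, a collagen V chain that nucleates fibrils, was the most counted fibrillar chain, at 1215 to 1387 counts in the 4 samples, and had a log2 fold change of -0.04 (adjusted p = 0.804). COL5A2 had -0.23 (adjusted p = 0.649), COL5A3 -0.21 (adjusted p = 0.832), COL11A2 -0.10 (adjusted p = 0.831) and COL27A1 0.01 (adjusted p = 0.967). COL3A1, the main partner of collagen I in soft tissue, was at or under 3 counts in every sample.

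The network-forming COL8A1, a chain of collagen VIII, had 27 and 19 counts in shCON and 50 and 42 in shZDHHC15. Its groups did not overlap, and its log2 fold change was 0.87 (SE 0.333, adjusted p = 0.0464), a call that was lost in 6 of 12 alternative analyses. Among those were the fits without shCON replicate 1, shCON replicate 2 and shZDHHC15 replicate 1 (adjusted p = 0.0681, 0.235 and 0.227). COL7A1, which forms the anchoring fibrils of the dermal junction, had a log2 fold change of 0.51 (adjusted p = 0.0892, and 0.0351 without shZDHHC15 replicate 1). The collagen VI chains COL6A1 and COL6A2 had -0.11 (adjusted p = 0.47) and 0.26 (adjusted p = 0.329).

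The enzymes that hydroxylate proline were led by P4HA2, a catalytic subunit of collagen prolyl 4-hydroxylase. It had 1176 and 1197 counts in shCON and 1991 and 2060 in shZDHHC15. Samples of each group lay close together and apart from the other group, with means of 67.7 ± 4.57 CPM in shCON and 106 ± 1.40 CPM in shZDHHC15 (SD, n = 2). The gene rose by a log2 fold change of 0.65 (SE 0.0996, adjusted p = 0.000124). Its antisense neighbour P4HA2-AS1 had 0 counts in every sample. P4HA1, the other common catalytic subunit, had 688 and 626 counts in shCON and 884 and 783 in shZDHHC15 (log2 fold change of 0.22, adjusted p = 0.147). P4HA3 was too low to test, at 9 and 9 counts in shCON and 7 and 19 in shZDHHC15.

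Of the lysyl hydroxylases, PLOD2, which hydroxylates the telopeptide lysines used in crosslinks, was called higher by a small amount. Its counts were 7386 and 5898 in shCON and 8585 and 8576 in shZDHHC15, and both knockdown samples exceeded both controls. The log2 fold change was 0.25 (SE 0.0946, adjusted p = 0.0449), and the call was lost in 7 of 12 alternative analyses, including those without shCON replicate 2, shZDHHC15 replicate 1 and shZDHHC15 replicate 2 (adjusted p = 0.309, 0.272 and 0.107). PLOD1 (0.04, adjusted p = 0.78) and PLOD3 (-0.08, adjusted p = 0.526) were not called.

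Lower levels were seen in the chaperone and in part of the lysyl oxidase family. SERPINH1 had 6303 and 6533 counts in shCON and 4717 and 5133 in shZDHHC15. The knockdown samples were both below the controls, the level went from 367 ± 29.4 to 257 ± 5.77 CPM (SD, n = 2), and the log2 fold change was -0.51 (SE 0.0918, adjusted p = 0.000461). LOXL2, a secreted lysyl oxidase that acts on collagen IV, had 3030 and 3205 counts in shCON and 2464 and 2483 in shZDHHC15 (log2 fold change of -0.46, adjusted p = 0.00164). It shares 120 exon bases with ENTPD4, which lies on the same strand and had more counts in shZDHHC15 (687 and 740) than in shCON (543 and 431).

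LOXL1, a lysyl oxidase best known for its part in elastic fibres, had 21 and 22 counts in shCON and 5 and 14 in shZDHHC15. These groups did not overlap, and the log2 fold change was -1.29 (SE 0.490, adjusted p = 0.0459). The antisense gene LOXL1-AS1 overlaps 9.21% of its exon bases and had 44 and 33 counts in shCON and 20 and 26 in shZDHHC15, so reads of the pair cannot be told apart. Its call was lost in 7 of 11 alternative analyses, among them those without shCON replicate 1, shCON replicate 2 and shZDHHC15 replicate 1 (adjusted p = 0.0691, 0.146 and 0.325). LOX, the founding enzyme of the family, had 36 and 44 counts in shCON and 68 and 69 in shZDHHC15, with no overlap, but was not called (log2 fold change of 0.65, adjusted p = 0.0671). LOXL3 had -0.36 (adjusted p = 0.237), and LOXL4 was at or under 3 counts in every sample. HTRA2, on the opposite strand, overlaps 14.3% of the exon bases of LOXL3. It had 772 and 785 counts in shCON and 440 and 558 in shZDHHC15, so reads of that pair cannot be told apart either.

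Per kilobase of gene length, enzymes and the chaperone held the highest levels. The highest mean levels in shCON were those of SERPINH1 (58.4 CPM per kilobase), PLOD2 (49.4), PLOD3 (32.6), LOXL2 (31.2) and PLOD1 (23.0). The leading chains there were COL12A1 at 9.74, COL6A1 at 7.89, COL18A1 at 7.56 and COL5A1 at 6.51 CPM per kilobase. These 4 chains together took 71.9 to 76.4% of all chain counts in each sample.

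**Figure D3:**
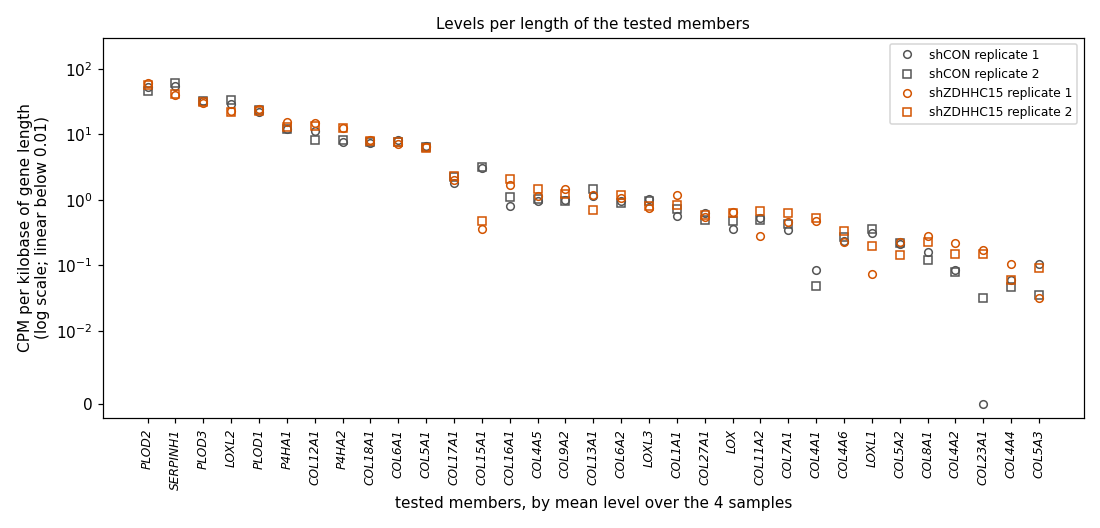
Level of the 33 tested members in CPM per kilobase of gene length (vertical log axis, linear below 0.01) in each of the 4 samples, ordered by their mean level. Circles and squares are replicates 1 and 2; COL15A1 lies lower, and COL4A1 higher, in both shZDHHC15 samples than in both shCON samples.

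Summed over all 44 chains, the level was 407 ± 21.6 CPM in shCON and 476 ± 8.08 CPM in shZDHHC15 (SD, n = 2). The sum over the 43 chains other than COL12A1 was 285 ± 3.87 and 297 ± 5.55 CPM. For the 12 enzymes and chaperone the sums were 1328 and 1358 CPM in the shCON samples and 1312 and 1277 CPM in the shZDHHC15 samples. With 2 samples in each group, an exact permutation test of such a sum cannot give a two-sided p below 0.333.

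Of the members, 23 did not pass the filter on low counts, 21 chains and 2 enzymes, and none of them exceeded 19 counts in a sample. In 9 of them no sample held more than 3 counts, and COL19A1 had 0 in every sample. The other 14, which exceeded 3 counts in at least 1 sample, included P4HA3, COL1A2 and COL4A3, given above. COL10A1, a marker of hypertrophic cartilage, had 0 counts in both shCON samples and 5 and 4 in shZDHHC15. COL6A5 had 6 and 6 counts in shCON and 0 and 2 in shZDHHC15, and COL2A1, the cartilage collagen, had 7 and 1 and then 0 and 1. COL24A1, COL6A6, COL28A1, COL9A3, COL14A1, COL20A1, COL21A1 and COL26A1 lay between 0 and 11 counts. Differences of this size were not tested.

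The stretches upstream of start sites were examined for letters bound by factors of the study's pathway and of hypoxia, as a description. RefSeq windows were found for 42 members, including 10 of the 13 called ones, and the 250 bases before the start site were searched on both strands. A gene may have several windows, and the members had 58. GGAATG, the core read by the TEAD partners of YAP, occurred in 4 of these 58 windows (6.90%) and in 11.9% of the 35116 windows of all genes. ACGTG, the core of the hypoxia response element, occurred in 13 of 58 (22.4%) against 18.5% of all windows. Of the called members with a window, COL12A1 held GGAATG and COL12A1, COL15A1, PLOD2 and SERPINH1 held ACGTG. The GC box GGGCGG occurred in 31 of 58 member windows (53.4%) and 42.6% of all windows, and CCAAT in 16 of 58 (27.6%) and 32.0%.
The windows of COL12A1, which held both cores, and of PLOD2, which held ACGTG on each strand, are shown in the direction of transcription (both genes on the minus strand, GRCh38.p14), with matches to either core in capitals, whichever strand they lie on.
COL12A1, chr6:75206054-75206303: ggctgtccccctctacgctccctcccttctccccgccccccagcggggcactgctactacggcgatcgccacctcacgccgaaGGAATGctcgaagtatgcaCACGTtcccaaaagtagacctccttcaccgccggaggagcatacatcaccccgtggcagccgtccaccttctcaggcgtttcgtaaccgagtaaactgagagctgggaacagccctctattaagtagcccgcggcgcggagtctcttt
PLOD2, chr3:146161185-146161434: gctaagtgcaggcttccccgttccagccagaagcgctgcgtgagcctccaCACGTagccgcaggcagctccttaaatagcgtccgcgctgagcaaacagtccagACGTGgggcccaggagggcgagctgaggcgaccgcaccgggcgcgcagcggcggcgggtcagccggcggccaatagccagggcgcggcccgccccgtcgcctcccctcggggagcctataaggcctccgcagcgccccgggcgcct
The window of COL12A1 lies outside the annotated span of its gene, and that of PLOD2 lies within the annotated span of PLOD2. A match is a run of letters and no measured binding.

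Other genes of collagen production were taken from a list of 53, of which 40 were tested. Among these 11 were higher and 4 lower, 27.5% and 10.0%, beside 21.7% and 20.3% of all tested genes, with a median log2 fold change of 0.12. Without normalization factors beyond library size, 12 were higher and 1 was lower (30.0% and 2.50%), but the calls of all genes moved the same way, to 24.8% higher and 16.1% lower. The procollagen export genes gave the largest rises. MIA2, a cargo factor of the export sites of the endoplasmic reticulum, had 506 and 413 counts in shCON and 1423 and 1184 in shZDHHC15 (log2 fold change of 1.39, adjusted p = 1.2e-06). SEC24D, a coat subunit that procollagen export needs, had 268 and 243 counts in shCON and 731 and 606 in shZDHHC15 (1.27, adjusted p = 7.24e-06). ITGA1, a collagen receptor subunit, rose by a log2 fold change of 0.85 (adjusted p = 0.00101) and MIA3, which encodes the procollagen cargo receptor TANGO1, by 0.64 (adjusted p = 0.00095). In the other direction were RUNX1, a transcription factor (log2 fold change of -0.57, adjusted p = 0.000195), ITGA2, the alpha subunit of another collagen receptor (-0.37, adjusted p = 0.0314), P3H1, a prolyl 3-hydroxylase (-0.34, adjusted p = 0.0271), and TLL1, a procollagen protease (-0.60, adjusted p = 0.0317). P4HB, the beta subunit that P4HA1 and P4HA2 need, had a log2 fold change of 0.09 (adjusted p = 0.447).

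P4HA1, P4HA2, PLOD2 and LOX are known targets of the hypoxia-inducible factors. Of these, P4HA2 and PLOD2 were called higher, and P4HA1 and LOX were not called. They are not taken as a full list of such members, and LOXL2, called lower (-0.46, adjusted p = 0.00164), was left out. Beside the named members, 12 other HIF targets were set. All 12 were tested, 6 were higher and 3 lower (beside 21.7% and 20.3% of all tested genes), with a median log2 fold change of 0.29 beside 0.02. NDRG1 and EGLN3 rose by log2 fold changes of 1.31 each (adjusted p = 4.26e-06 and 6.38e-06). CA9, a carbonic anhydrase, rose by 1.07 (adjusted p = 0.00375) and KDM3A, a histone demethylase, by 0.73 (adjusted p = 0.000502). Lower were LDHA (-0.39, adjusted p = 0.00236) and ADM (-0.29, adjusted p = 0.0314), with ANKRD37 as the third. The glycolytic PGK1 had a log2 fold change of -0.04 (adjusted p = 0.777), and the called genes of this list lay in both directions.

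**Figure D4:**
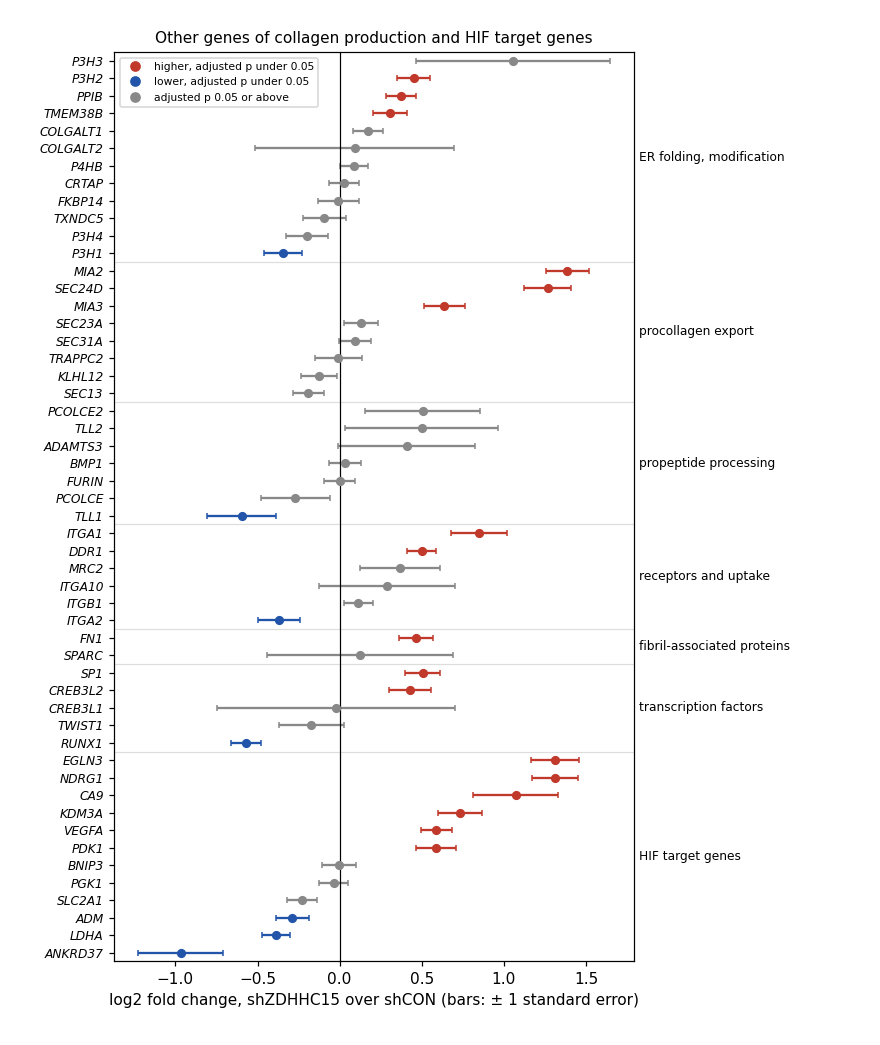
Log2 fold changes (shZDHHC15 over shCON, horizontal axis) of the 40 tested genes of collagen production outside the members and of the 12 HIF target genes, grouped by role, with bars of 1 standard error. MIA2 and SEC24D lie farthest to the right among the called genes of collagen production.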

How the data were processed

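RNA of 4 HCC1954 samples was analysed, 2 shCON and 2 shZDHHC15, grouped by their labels. The authors deposited raw, not normalized read counts per gene, with gene positions and lengths. The submitters' processing notes name HISAT2, StringTie, SAMtools and hg38, without versions or roles. The counting tool and the use of strand are not given in the sources used here. The NEBNext Ultra kit was used on total RNA. Positions and symbols of 58724 of 58735 rows matched GENCODE 29, which was used for exon overlaps. Promoter sequence is from RefSeq on GRCh38.p14.

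Genes were filtered with filterByExpr and tested in edgeR 4.0.16 (R 4.3.3, limma 3.58.1) with TMM factors of 0.962 to 1.03, glmQLFit and glmQLFTest, over all 15817 genes that passed, with Benjamini-Hochberg adjustment. The common biological coefficient of variation was 0.0877. CPM were computed from TMM-scaled library sizes. The 12 alternatives were other scalings, filters and dispersion settings, DESeq2 1.42.0, a replicate block and leaving out each sample. In the last, the lone sample of a group is assumed to vary like the other group. On data simulated for this comparison (15437 genes, 200 changed by a log2 fold change of 1.5), 87% of the changed genes were called and 0.571% of calls were false. The simulation differed from the data, where 21.7% of tested genes were called higher and 20.3% lower. Most called members also changed by less than a log2 fold change of 1.5. These shares therefore do not carry over to the calls above. Within groups, counts differed by more than sampling noise (chi-square per degree of freedom 8.32 in shCON and 6.79 in shZDHHC15), so no 2 samples were 1 library deposited again. Intervals and floors of 3 counts cover counting error only. No column of counts was left unused.

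The members and lists were chosen with earlier results of these data known. Members with an adjusted p under 0.05 and an absolute log2 fold change of at least 0.5 are given in full, other tested members by fold change and adjusted p, untested ones by their counts, and at most 4 rises and 4 falls of each further list, limited to called genes whose higher group averaged 100 counts or more. PLOD2, LOXL2 and some members that were not called are given with counts beyond that rule, chosen after their values were seen.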

Additional observations from a re-analysis of the deposited data

How the results depend on the processing

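COL4A1, COL15A1, COL16A1, LOXL2, P4HA2 and SERPINH1 kept their calls in all 12 alternatives, and COL12A1 lost its call in 1, without the filter on low counts (adjusted p = 0.0507). The 9 higher members became 5 with the DESeq2 Wald test, 4 without the filter and 6 to 8 when 1 sample was left out, where the share of all genes called higher went from 21.7% to 16.7%, 7.56% and 15.3 to 20.4%. The 4 lower members (12.1%, beside 20.3% of all genes) became 3 with the DESeq2 Wald test (9.09%, beside 17.1%). Without the filter they became 3 of 55 (5.45%, beside 7.79%). The cause of these changes was not tested. In the pathway list, the 11 higher genes became 7 to 11 when 1 sample was left out (7 without shZDHHC15 replicate 1), and the 4 lower genes became 2 to 3, and 1 with library size only or without the filter. When 1 sample was left out, a smaller share of all genes was called higher too, as given above. The pathway counts there therefore do not single out the list. Its lower genes were 4 of 40 in the main test (10.0%, beside 20.3% of all genes). With library size only they were 1 of 40 (2.50%, beside 16.1%), and without the filter 1 of 48 (2.08%, beside 7.79%). The members' median log2 fold change of 0.13 became 0.20 with library size only and 0.23 without the filter. It was 0.11 to 0.21 when 1 sample was left out. The median of all genes moved from 0.02 to 0.09 with library size only and to 0.06 without the filter.

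No called member changed direction. Among those not called, COL27A1 became -0.0182 with upper-quartile factors and -0.0060 without the filter, and COL5A1 0.0395 with library size only. When 1 sample was left out, log2 fold changes ranged from -0.15 to 0.15 for COL27A1, -0.18 to 0.37 for COL4A6, -0.89 to 0.38 for COL11A2, -0.60 to 0.0756 for COL5A2, -1.15 to 0.77 for COL5A3, -0.0732 to 0.26 for COL17A1 and -0.0503 to 0.0911 for PLOD1.

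Deviations of samples with the same replicate number correlated at 0.0344 across genes, so the numbers were not taken to pair the samples. With a replicate block, 10 members were higher and 4 lower (30.3% and 12.1%), beside 23.5% and 22.1% of all tested genes. There the members' median was 0.11, and 11 pathway genes were higher and 4 lower (27.5% and 10.0%). COL23A1, LOXL1, COL4A4 and COL5A3 gave no value with at least 10 counts in every sample, nor did COL23A1 without either shZDHHC15 replicate. Depth limits the 23 untested members, at 19 counts or fewer.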
